A study of Mus musculus with 24 samples.

Results

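The neural retina and the eye cup of 3 untreated wildtype mice were compared across all genes, retina against eye cup within each mouse. The labels describe the eye cup as RPE, choroid and sclera. These 6 libraries were taken, by their labels, from 24 libraries of 12 mice. The other mice were wildtype with dox, untreated PRDM13-OE and PRDM13-OE with dox, with 3 mice in each group. PRDM13-OE mice were heterozygous for a dox-inducible human PRDM13 cassette at Rosa26, placed there on the C57BL/6J background, and dox was given in drinking water at 2 mg/mL with 10% sucrose for 72 hours, beginning at P28. Untreated mice were given none, and their age at collection is not stated apart from that of the treated mice. All mice were kept in a cycle of 12 hours of light and 12 hours of dark. The labels tie both tissues to the same mouse by number, and each library is the tissue of 1 mouse.

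The neural retina turns light into nerve signals. Rods and cones absorb photons with opsins in their outer segments, bipolar, horizontal and amacrine cells process the signal, and ganglion cells send it through the optic nerve. The RPE is a pigmented epithelium that faces the outer segments, takes up their shed tips and turns all-trans retinol back into 11-cis retinal in the visual cycle. Behind it lie the choroid, a vascular layer with melanocytes, fibroblasts and immune cells, and the sclera, the collagen shell of the eye.

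The 6 libraries held between 16321112 and 23509542 counts, within the range of all 24 libraries (15825059 to 24908314). Genes of the mitochondrial genome took 2.02%, 2.29% and 2.20% of the counts in the retinas of mice 1, 2 and 3, compared with 11.0%, 7.17% and 8.15% in their eye cups. The labels give no sex. Xist, which is transcribed from the inactive X chromosome, was at 232 CPM (a gene's count scaled to sequencing depth with TMM factors) in the retina and 68.4 CPM in the eye cup of mouse 2, where Uty of the Y chromosome was at 0. The retinas of mice 1 and 3 had 0 Xist and 24.7 and 23.6 CPM of Uty, and their eye cups had 13.3 and 10.9 CPM of Uty. Both tissues of each mouse thus carried the same sex-linked transcripts. Of the 5 sex-linked genes tested, 2 passed as higher in retina (Xist and Uty), but neither call was stable. Xist stood at −0.24 in DESeq2 with the mouse block and had adjusted p-values of 0.576 without the block and 0.067 without mouse 3. Uty had adjusted p-values of 0.59 without the block, 0.0839 without mouse 1 and 0.191 without mouse 3, and a log2 fold change of 0.96 with filterByExpr.

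Each tissue held transcripts that its label does not name, and they differed between mice. Rod transcripts were abundant in the eye cups. The 18 genes of a rod list summed to 78954, 78015 and 81183 CPM in the retinas and to 31093, 4567 and 16067 CPM in the eye cups, so the eye cup held 39.4%, 5.85% and 19.8% of the retina's level in mice 1, 2 and 3. Conversely, 23 RPE genes summed to 44527, 58517 and 68621 CPM in the eye cups and to 1967, 1743 and 1814 CPM in the retinas. Cst3 alone made up 719, 597 and 680 CPM of the retinal sums, and the list also holds Rlbp1 and Otx2, which retinal cells express too. Over the 22 called members, the median retina level was 1.89%, 1.21% and 0.860% of the eye cup's in mice 1, 2 and 3. Keratins and other genes of the corneal and conjunctival surface were also high in the eye cups, with 13 genes at 18588, 21711 and 19211 CPM compared with 6.48 to 8.93 CPM in the retinas. Skeletal muscle transcripts reached 1129.97, 2269 and 944 CPM in the eye cups against 23.4 to 27.4 CPM in the retinas. Central and peripheral myelin genes stood out in the eye cup of mouse 2, at 3879 CPM compared with 479.7 and 399 CPM in the other two, and globin and other red cell genes in that of mouse 1, at 3663 CPM compared with 740.1 and 525 CPM. Lens genes were highest in both tissues of mouse 1 (961 CPM in retina and 4840.4 CPM in eye cup). What part these other tissues have in the differences reported here was not tested. In tissue RNA, fewer cells of a type and less RNA per cell cannot be told apart.

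**Figure D1:**
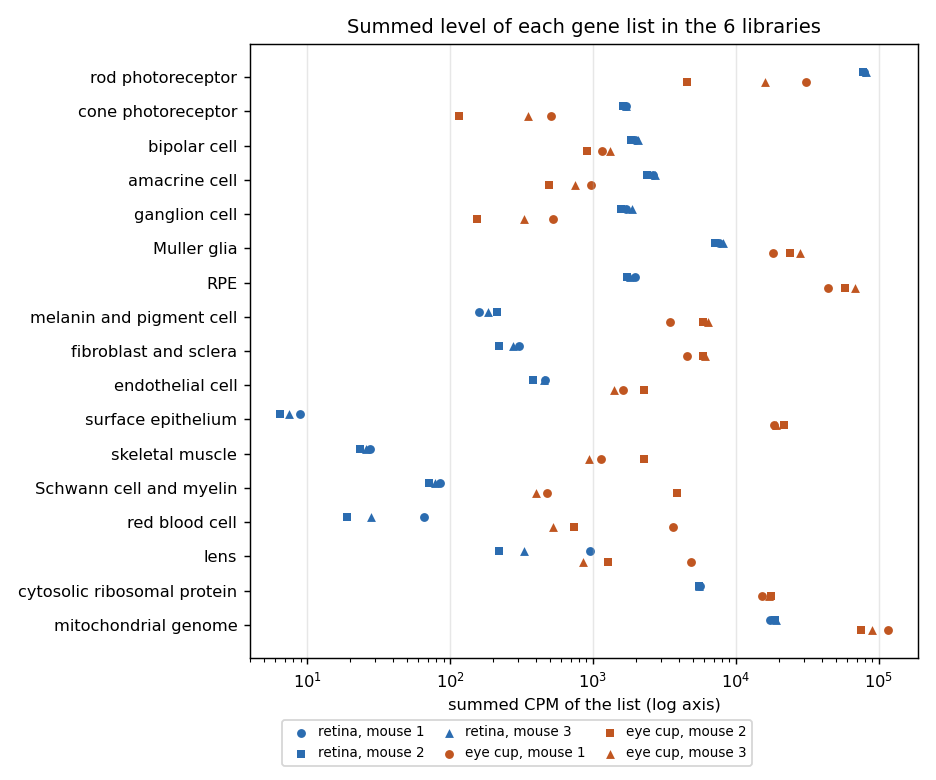
Summed CPM of gene lists (vertical) on a log axis (horizontal) in the retinas (blue) and eye cups (orange) of mice 1 (circles), 2 (squares) and 3 (triangles). The 3 retinas lie close together in each list except red blood cell and lens, whereas the eye cups spread from 4567 to 31093 CPM for the rod list and from 399 to 3879 CPM for the Schwann cell and myelin list.

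Tissue was the main axis of the data. The first principal component of log2(FPKM + 1) over 29333 genes accounted for 90.5% of the variance, against 4.49% for the second. The 3 retinas lay between 92.5 and 94.2 on the first component, and the eye cups at −71.0, −116 and −92.3 for mice 1, 2 and 3. The eye cup with the most rod transcripts lay nearest to the retinas and the one with the fewest lay farthest from them. 

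Of 21979 genes tested, 8960 (40.8%) differed between the tissues (edgeR quasi-likelihood test with the mouse as a block, adjusted p under 0.05 and log2 fold change past 1). Of these, 3805 (17.3% of genes tested) were higher in the retina and 5155 (23.5%) were higher in the eye cup. The 3 libraries of a tissue did not overlap those of the other in 3793 of the former and 5113 of the latter, compared with 70.9% of all genes tested. The split depended on how libraries were scaled. With total library size in place of TMM factors, which moved the median difference of all genes by 0.30 toward the retina, 5057 were higher in retina and 4409 in eye cup (53.4% of calls in retina, compared with 42.5%). No gene was called in opposite directions under any setting tried. Protein-coding genes made up 3269 of the retina calls and 4480 of the eye cup calls, and lncRNAs 397 and 382.

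Differences toward the eye cup were larger than those toward the retina. The median size was 1.94 on the log2 scale for genes higher in retina and 2.47 for genes higher in eye cup, with genes undetected in the lower tissue (at most 3 counts in each library) placed at their lower bound. Among genes with at least 50 CPM in the higher tissue, 14 of 1459 retina genes and 382 of 1647 eye cup genes were past a log2 difference of 4. None of those retina genes was past 6, compared with 209 of the eye cup genes. A gene higher in retina was still at 1 CPM or more in the eye cup in 81.9% of cases, compared with 60.02% in the reverse case. At the extremes, 90 genes had at least 10 counts in every retina and were undetected in the eye cups, and 561 genes showed the reverse.

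The retina spread its counts over more genes. The most abundant 931, 945 and 912 genes made up 50% of the counts of the retinas, compared with 597, 601 and 544 in the eye cups. Even so, more genes were at 1 CPM or more in the eye cups (15393 to 15787) than in the retinas (14466 to 14737). That cut follows TMM scaling, with factors of 0.874 to 0.918 in the eye cups and 1.09 to 1.15 in the retinas. Genes with any count were more numerous in the retinas (22961 to 23325) than in the eye cups (21645 to 22591). Genes higher in retina also covered longer stretches of the genome. The median protein-coding gene higher in retina spanned 43.4 kb, compared with 17.4 kb for genes higher in eye cup, 24.7 kb for genes alike in both and 23.9 kb for all tested. Spans over 100 kb were found in 27.8% of retina genes, 10.5% of eye cup genes and 14.5% of all.

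**Figure D2:**
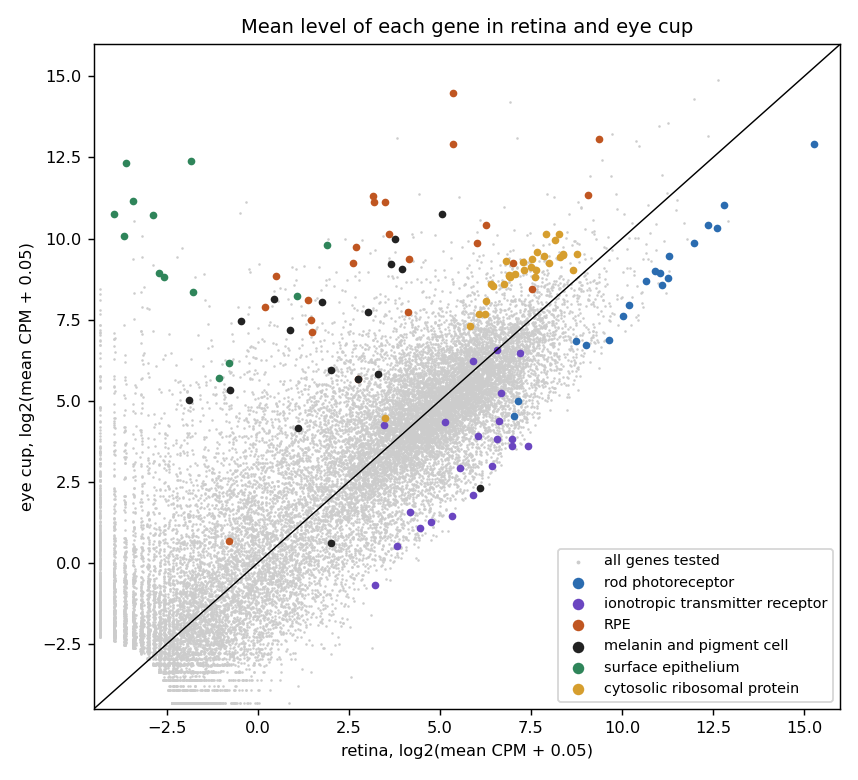
Mean level of each tested gene in retina (horizontal) and eye cup (vertical), n = 3 mice, both as log2(mean CPM + 0.05), with members of 6 lists in colour and the line of equal levels. Rod and ionotropic receptor genes run below the line at a limited distance, whereas RPE, melanin and surface epithelium genes lie far above it and most ribosomal protein genes lie a short way above it.

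Ranked by mean FPKM, which corrects for gene length, the 10 most abundant nuclear protein-coding genes of the retina included Gnat1, Prph2, Rom1, Rbp3, Gnb1, Rcvrn, Eef1a1, Aldoa and Pde6g. Most of these act in photoreceptors, among them the rod G protein subunit Gnat1 (2441 FPKM) and the disc rim proteins (Prph2, 2151 FPKM, and Rom1, 1710.2 FPKM). The elongation factor Eef1a1 (908 FPKM) and the glycolytic enzyme Aldoa (854 FPKM) are used in all cells. In the eye cup, the list read Ttr, Ptgds, Cst3, Apoe, Gsto1, Krt15, Trf, Krt5, Rplp1 and Bsg. Ttr, a carrier of thyroxine and of the retinol-binding protein made by the RPE, led with 19938 FPKM, followed by the prostaglandin D synthase Ptgds (11757 FPKM) and the protease inhibitor Cst3 (6997 FPKM). Krt15 and Krt5, keratins of stratified epithelium, were at 3109.9 and 2379.8 FPKM, although the label names no such tissue.

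Promoter sequences are shown for genes from each side, since these groups are known targets of named factors: CRX and OTX2 bind a TAATCC core at photoreceptor and RPE genes, NRL binds a site that contains TGCTGA, and MITF binds TCATGTG at pigment genes. The 250 bases before the canonical transcript start were read from GRCm39 with the GENCODE vM39 annotation, 5′ to 3′ on the strand of the gene. The 5 genes were picked, after the values and matches were seen, among members with a match. Capitals mark a match to any of these motifs. A match on the other strand appears as its reverse complement, which is GGATTA for the CRX and OTX2 core. For the MITF motif it is CACATGA.
Sag, chr1:87731152-87731401, + strand: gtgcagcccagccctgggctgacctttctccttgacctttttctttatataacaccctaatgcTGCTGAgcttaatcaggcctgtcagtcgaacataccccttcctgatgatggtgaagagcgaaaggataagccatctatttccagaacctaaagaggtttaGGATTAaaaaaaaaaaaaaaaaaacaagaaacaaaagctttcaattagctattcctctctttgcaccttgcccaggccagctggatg
Gnat2, chr3:107999855-108000104, + strand: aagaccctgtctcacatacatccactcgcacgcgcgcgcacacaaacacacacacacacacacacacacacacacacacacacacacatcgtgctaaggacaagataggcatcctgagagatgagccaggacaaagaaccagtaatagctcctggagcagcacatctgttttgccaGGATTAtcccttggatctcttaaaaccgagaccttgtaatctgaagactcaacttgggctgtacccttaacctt
Rpe65, chr3:159304552-159304801, + strand: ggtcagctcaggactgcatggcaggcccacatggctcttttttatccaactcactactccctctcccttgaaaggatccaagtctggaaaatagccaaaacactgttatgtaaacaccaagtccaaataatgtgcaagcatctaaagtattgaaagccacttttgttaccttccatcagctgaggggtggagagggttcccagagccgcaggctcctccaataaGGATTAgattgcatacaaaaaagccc
Tyr, chr7:87142721-87142970, - strand: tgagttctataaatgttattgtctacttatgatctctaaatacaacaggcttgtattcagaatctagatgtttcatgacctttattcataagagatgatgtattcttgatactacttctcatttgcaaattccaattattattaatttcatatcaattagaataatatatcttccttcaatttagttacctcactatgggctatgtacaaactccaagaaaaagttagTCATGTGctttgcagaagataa
Mlana, chr19:29674974-29675223, + strand: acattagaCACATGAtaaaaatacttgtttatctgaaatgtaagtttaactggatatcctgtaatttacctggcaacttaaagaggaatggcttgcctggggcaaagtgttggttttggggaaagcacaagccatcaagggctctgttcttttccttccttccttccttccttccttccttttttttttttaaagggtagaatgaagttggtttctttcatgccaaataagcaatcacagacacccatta
Sag, the rod arrestin, had the TAATCC core 87 to 82 bases before the start, on the other strand, and TGCTGA at 187 to 182. In Gnat2, the cone transducin, TAATCC lay at 74 to 69, and in Rpe65, the visual cycle isomerase, at 26 to 21, both on the other strand. TCATGTG lay at 22 to 16 in Tyr and, on the other strand, at 242 to 236 in Mlana, both of which act in pigment cells. Over all 16352 windows, 6.45% held TAATCC, 13.6% TGCTGA and 2.12% TCATGTG on either strand. TAATCC was in 6 of 18 rod windows (Cnga1, Cngb1, Gngt1, Pde6g, Sag and Samd7), 4 of 13 cone windows (Cngb3, Gnat2, Gnb3 and Pde6c), 4 of 23 RPE windows and 3 of 17 melanin windows. TCATGTG was in 6 of 17 melanin windows (Dct, Gpr143, Mc1r, Mlana, Tyr and Tyrp1), 1 of 23 RPE windows and 1 of 18 rod windows. TGCTGA was in 3 of 18 rod windows (16.7%), 2 of 13 cone windows, 5 of 23 RPE windows (21.7%) and 2 of 17 melanin windows. Over all genes called, the shares did not separate the tissues: TAATCC was in 6.58% of windows of genes higher in retina and 6.50% of those higher in eye cup, and TCATGTG in 2.11% and 2.41%. A match is a run of letters in the window, not a measured binding site.

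Of the lists, that of rods held the most retinal counts. All 18 rod genes were higher in retina, with log2 fold changes from 2.02 to 3.19 and a median of 2.63, where the median of all genes was −0.01. Gnat1, the alpha subunit of rod transducin (chromosome 9, 107551673 to 107556911), was at 7269, 6784 and 7519.6 CPM in the retinas of mice 1, 2 and 3 and at 3691, 441 and 2197 CPM in their eye cups. The 3 retinas differed little and lay above all eye cups. The log2 fold change of Gnat1 was 2.19 ± 0.59 (SE; adjusted p = 0.0215, edgeR). The phototransduction genes Pde6a, Pde6b, Pde6g, Cnga1 and Cngb1 and the transcription factors Nrl and Nr2e3 were all among them. Without mouse 3, 7 of the 18 rod genes passed (adjusted p from 0.0194 to 0.109, with log2 fold changes from 1.79 to 3.25), and Gnat1 was at 2.45 with an adjusted p of 0.0971. Without mouse 1 or mouse 2, all 18 passed.

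Cone genes were scarcer, with 13 genes at 1711, 1631 and 1707 CPM in the retinas and 509.9, 116 and 353 CPM in the eye cups. All 13 were higher in retina, with a median log2 fold change of 2.76. Opn1sw, the short wavelength opsin, was at 529.6, 419 and 546 CPM in the retinas and 134, 11.6 and 118 CPM in the eye cups, and Opn1mw, the middle wavelength opsin, at 187, 168 and 169 CPM and 64.0, 8.81 and 34.2 CPM. Neither opsin overlapped between the tissues, as in 70.9% of all genes tested, and both were lowest in the eye cup of mouse 2. Gnat2 was 2.20 ± 0.28 higher on the log2 scale (adjusted p = 0.00121, edgeR), and the cone arrestin Arr3 3.10 higher. All 13 cone genes passed without mouse 3 as well, in contrast to the rod list.

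Of the inner retinal neurons, bipolar genes were higher in retina in 13 of 15 (median log2 fold change 3.13), amacrine genes in 12 of 18 (3.20), horizontal cell genes in 5 of 8 (3.15) and ganglion cell genes in 14 of 16 (2.82), and no member of these lists was called higher in eye cup with all 3 mice. Grm6, the glutamate receptor of ON bipolar cells, was at 129, 125 and 137 CPM in the retinas and 22.1, 3.27 and 12.8 CPM in the eye cups (log2 fold change 3.65 ± 0.51, adjusted p = 0.00172, edgeR). Gad1, which makes GABA in amacrine cells, was at 357, 338 and 398 CPM and 64.6, 4.47 and 41.6 CPM (3.84 ± 0.75, adjusted p = 0.0061). Both showed the order of eye cups seen for rods, with mouse 1 highest and mouse 2 lowest. Prdm13, an amacrine transcription factor and the mouse counterpart of the transgene, was at 40.4, 45.9 and 43.7 CPM in the retinas and 7.96, 0.868 and 4.24 CPM in the eye cups (3.55 ± 0.58, adjusted p = 0.00304). Slc17a6, the vesicular glutamate transporter of ganglion cells, had the largest log2 fold change of the ganglion list, at 4.05. Without mouse 3, 10 bipolar, 8 amacrine, 2 horizontal and 12 ganglion genes passed.

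Several genes used as markers of these neurons did not pass the fold threshold of 1 on the log2 scale. Trpm1, the cation channel of ON bipolar cells that pigment cells also express, was at 258, 228 and 259.6 CPM in the retinas and 390.0, 449.8 and 637 CPM in the eye cups, a log2 difference of −0.96 that did not reach the fold threshold. Otx2, a transcription factor of photoreceptors, bipolar cells and RPE, stood at −0.94 (95% interval −1.28 to −0.60). The tissues did not overlap in either gene, as in 70.9% of all genes tested, and Trpm1 was called higher in eye cup without mouse 1 (−1.05). Pax6, Tfap2a, Dab1 and the glycine transporter Slc6a9 of the amacrine list and Rbpms of the ganglion list were alike, that is, their 95% interval lay within 1 log2 unit of equality. Pax6 was at 238, 232 and 246 CPM in the retinas and 194, 169 and 216 CPM in the eye cups, and Slc6a9 at 166, 148 and 167 CPM and 151, 150.4 and 139 CPM. Opn4, the melanopsin of intrinsically photosensitive ganglion cells, was at 5.74, 6.86 and 5.69 CPM in the retinas and 10.2, 9.62 and 16.6 CPM in the eye cups (−0.96, not past the threshold, and −1.19 and called higher in eye cup without mouse 2).

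Müller glia, the radial glia of the retina, gave no common direction. Of 16 genes, 5 were higher in retina, 7 were higher in eye cup and 2 were alike. The water channel Aqp4 (132, 116 and 127 CPM compared with 35.5, 33.1 and 56.7 CPM), the potassium channel Kcnj10 and the transporter Abca8a were higher in retina, at 1.62, 1.37 and 2.77 on the log2 scale. In these genes, the eye cup of mouse 2 was not set apart as it was for rod genes, except in Abca8a (78.1, 22.4 and 51.9 CPM). Rlbp1, the retinaldehyde carrier of both Müller glia and RPE, was higher in eye cup by 2.29, as were Sox9, Clu, Vim, Hes1, Car14 and Apoe. Glul, glutamine synthetase, was alike at 2828, 2729.6 and 3141 CPM compared with 2341, 2109 and 2619 CPM (0.30, 95% interval −0.14 to 0.74).

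Synaptic genes followed the neurons. Of 19 photoreceptor synapse genes, 18 were higher in retina (median log2 fold change 2.86), among them Snap25 of the release machinery (1229.8, 1167 and 1247 CPM compared with 307, 21.4 and 159.9 CPM) and the glutamate transporter Slc17a7 (2330.3, 2499 and 2739 CPM compared with 912, 123 and 485 CPM). Slc17a7 had an adjusted p of 0.0587 without mouse 3 (log2 fold change 2.84), where 15 synapse genes passed. Of 21 ionotropic receptors, 16 were higher in retina (median 3.03), and the same number passed without mouse 3. Subunits of 1 receptor class received different calls. Gria2 and Gria4 were higher in retina by 3.95 and 3.599, whereas Gria1 (0.01) and Gria3 (0.81) did not pass, and Grik5 was alike at 94.7, 93.1 and 94.99 CPM compared with 99.3, 91.9 and 93.4 CPM.

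Genes of the photoreceptor cilium, which joins inner and outer segment, were mixed. In all, 13 of 20 were higher in retina (median 1.44) and 3 were alike. Rp1, a microtubule protein of the photoreceptor axoneme, was highest by difference at 1427, 1267 and 1506 CPM compared with 345, 34.2 and 157 CPM (3.48), and Rp1l1 and Lca5 followed. Components that ciliated cells share, such as Ift88 (0.55) and Nphp4 (0.40), were alike. In the interphotoreceptor matrix, the gel between photoreceptors and RPE, Impg1 and Impg2, its photoreceptor proteoglycans, were higher in retina by 3.17 and 3.62, as were Rbp3 (adjusted p = 0.0684 without mouse 3), Egflam and Pcdh15. Cd44, a hyaluronan receptor, was higher in eye cup (53.3, 48.9 and 54.2 CPM compared with 13.2, 11.4 and 11.0 CPM).

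Retinal transcripts were found in the eye cup at shares that differed between mice. Over the genes called higher in retina, the median eye cup level was 35.2%, 17.98% and 24.8% of the retina's in mice 1, 2 and 3. The medians were 37.5%, 4.96% and 19.4% for rod genes, 28.3%, 5.73% and 20.2% for cone genes, 28.7%, 3.82% and 14.3% for ganglion genes and 28.1%, 2.62% and 12.9% for bipolar genes. For horizontal cell genes they were 21.0%, 1.504% and 10.5%, and for amacrine genes 19.6%, 1.20% and 10.1%. In these medians over called members, the order was mouse 1, then 3, then 2 in each list. Summed over all members, called or not, the shares were 39.4%, 5.85% and 19.8% for rods, 29.8%, 7.08% and 20.7% for cones and 30.6%, 9.95% and 17.6% for ganglion cells. They were 58.6%, 48.5% and 63.6% for the bipolar list and 46.7%, 58.6% and 60.04% for the horizontal list, where mouse 3 was highest, and 36.6%, 20.5% and 27.5% for the amacrine list. In the reverse direction, the retinas held 1.89%, 1.21% and 0.860% of the eye cup's level of RPE genes, 5.32%, 2.95% and 3.16% for fibroblast genes and 14.5%, 9.02% and 12.5% for endothelial genes. These are medians over genes chosen for being higher in 1 tissue, and are given as a description.

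**Figure D3:**
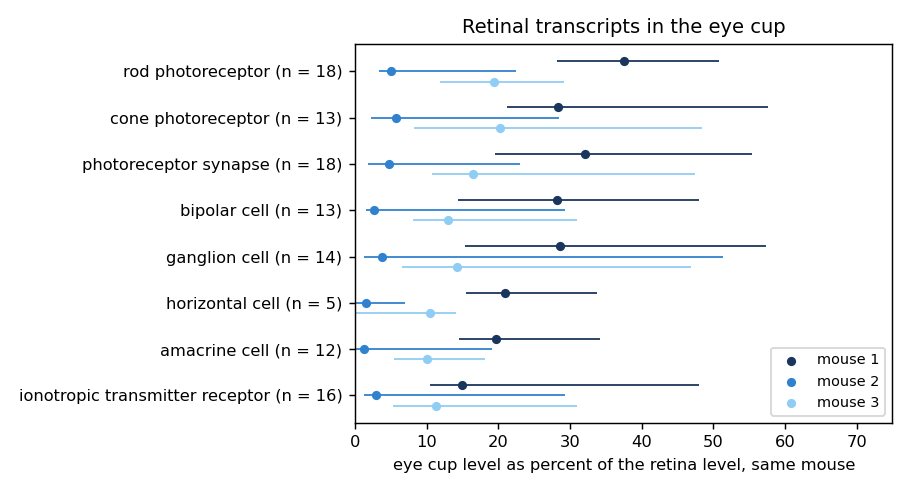
Eye cup level as a percentage of the retina's level in the same mouse (horizontal) for the called members of 8 retinal lists (vertical), with the median over members (point) and the lowest to highest member (line) in each of the 3 mice. Mouse 1 has the highest median and mouse 2 the lowest in each list, with rod medians of 37.5%, 4.96% and 19.4% in mice 1, 2 and 3.

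By size of difference, the 15 leading genes with at least 50 CPM in retina ran from 3.98 to 4.40 on the log2 scale. Scn1a, a neuronal sodium channel, led at 83.4, 77.3 and 85.5 CPM compared with 11.5, 0.467 and 4.14 CPM (4.40 ± 0.73, adjusted p = 0.00316, edgeR). The others included Slc7a14, Lactbl1 and Cadps, a factor for vesicle release (379, 348 and 359 CPM compared with 51.3, 5.14 and 22.9 CPM), and Slc24a4, Fstl5, Myt1l, Ptprn2, Chrna6, Slc17a6, Nptx1, Hecw1 and Zmat4. Without mouse 3, Chrna6, Fstl5 and Zmat4 had adjusted p-values of 0.0695, 0.0518 and 0.0534.

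RPE genes were on the eye cup side. Of 23, 22 were higher in eye cup with a median log2 difference of −6.12, and Otx2 was the exception. Rpe65, the isomerase that makes 11-cis retinol (chromosome 3, 159304812 to 159330958), was at 1640.3, 2465 and 2605 CPM in the eye cups and at 15.3, 14.6 and 4.07 CPM in the retinas (−7.77 ± 0.62, adjusted p = 0.000232, edgeR). Ttr was at 18953, 21127 and 29322 CPM and 59.5, 44.1 and 18.5 CPM (−9.26 ± 0.65, adjusted p = 0.000143), and Slc16a8, the lactate transporter of the RPE, at 1737, 2489.5 and 2475 CPM and 11.5, 12.0 and 3.77 CPM (−8.06). In all 3, the eye cup of mouse 1 was lowest and the retina of mouse 3 was lowest. Kcnj13, the apical potassium channel, was at 209, 216 and 287 CPM and Best1, a basolateral anion channel, at 1.68, 1.54 and 1.46 CPM, compared with 0.788, 0.381 and 0.428 CPM in the retinas. The call of Best1 (−1.59, adjusted p = 0.035) was lost with total library size (−1.29, adjusted p = 0.065) and without any 1 of the mice (adjusted p = 0.0936, 0.0996 and 0.153 without mice 1, 2 and 3).

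The visual cycle separated into the enzymes that each tissue holds. Of 21 genes, 5 were higher in retina, 13 higher in eye cup and 1, the retinol dehydrogenase Rdh11, alike at 72.1, 59.4 and 69.4 CPM compared with 72.4, 73.7 and 68.5 CPM. The photoreceptor steps lay with the retina: the lipid flippase Abca4 (1256, 1259 and 1365 CPM compared with 686, 407 and 426 CPM, log2 fold change 1.39 ± 0.22, adjusted p = 0.00273, edgeR), the dehydrogenases Rdh8 (3.57) and Rdh12 (2.73), the matrix retinoid carrier Rbp3 (2.91) and Crabp1. The call of Rbp3 was lost without mouse 3 (2.90, adjusted p = 0.0684) and that of Crabp1 in the fit of all 24 libraries (1.73, adjusted p = 0.0537). Abca4 was less reduced in the eye cups than Rbp3, which was at 8194, 7023 and 8123 CPM and 3092, 332 and 1065 CPM. The RPE steps lay with the eye cup: Lrat, which esterifies retinol (−7.20), Rpe65 (−7.77), Rdh5, which oxidizes 11-cis retinol (−8.23), and the retinol receptor Stra6 (−6.55). Rdh5 was at 1711, 2747 and 3194 CPM in the eye cups and 10.2, 12.3 and 4.07 CPM in the retinas, while Rlbp1 and Rdh10, which are known from Müller glia too, kept 498 to 596 CPM and 62.9 to 70.6 CPM in the retinas. Opsin genes split in the same way, with Opn1sw and Opn1mw higher in retina and the retinal G protein-coupled receptors Rgr (−7.70) and Rrh (−3.57) higher in eye cup. Opn3, the encephalopsin, was near 1 CPM in both tissues (0.906 to 1.05 CPM and 1.02 to 1.66 CPM).

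**Figure D4:**
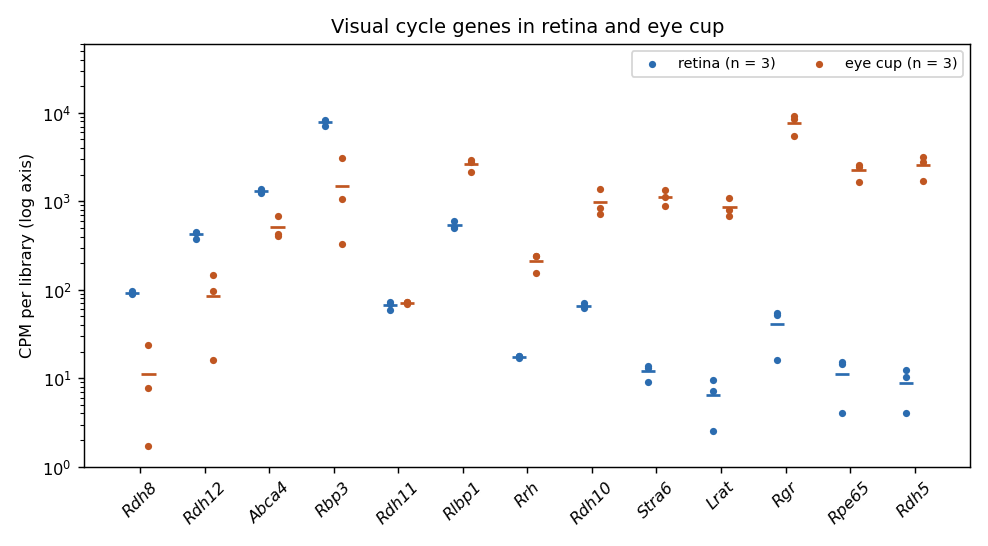
CPM on a log axis (vertical) of 13 visual cycle genes (horizontal) in the retinas (blue) and eye cups (orange), with 1 point per library and a bar at the mean of 3 mice. From left to right the genes pass from retina to eye cup, with Rdh11 level between the tissues and Rdh8 and Rdh5 at the ends.

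Pigment genes were higher in eye cup in 15 of 17 (median −5.56). Tyr, the rate-limiting enzyme of melanin synthesis, was at 208, 284 and 295 CPM in the eye cups and 3.28, 4.24 and 2.57 CPM in the retinas (−6.29 ± 0.25, adjusted p = 3.29e-05, edgeR), and Mlana at 196, 301 and 345 CPM and 0.525, 1.76 and 1.67 CPM (−7.81 ± 0.28, adjusted p = 2.78e-05). Sox10, a neural crest factor of melanocytes and Schwann cells that the RPE lacks, was at 128, 206 and 197 CPM in the eye cups and 0.171 to 1.38 CPM in the retinas. Among the retinas, Pmel (6.30, 19.5 and 14.8 CPM) and Dct (17.8, 49.3 and 32.0 CPM) were lowest in mouse 1, whose retina had the highest level of Rpe65. The exceptions were Slc24a4 and Mc1r. Slc24a4, an exchanger known from pigment traits, was higher in retina by 4.19 (75.1, 61.7 and 68.9 CPM compared with 10.5, 1.27 and 2.88 CPM). Mc1r, the melanocortin receptor, was at 3.37, 3.48 and 5.13 CPM in the retinas and 2.61, 0.601 and 1.27 CPM in the eye cups, a call of 1.55 that was lost without mouse 2 (1.16, adjusted p = 0.0663) or mouse 3 (1.32, adjusted p = 0.194).

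Connective tissue genes of sclera and choroid were higher in eye cup in 19 of 20 (median −4.58), and Pdgfra (−0.65) did not pass. Col1a1, the main collagen of sclera, was at 627, 617 and 546 CPM in the eye cups and 1.18, 1.00 and 0.727 CPM in the retinas (−9.27 ± 0.23, adjusted p = 2.67e-05, edgeR), and the small proteoglycan Dcn at 417, 599.7 and 436 CPM and 0.219, 0.238 and 0.471 CPM (−10.57). Of 32 collagen genes, 24 were higher in eye cup (median −3.24), 1 was higher in retina and 1 was alike. That 1 gene was Col25a1, a transmembrane collagen of neurons, at 11.0, 9.11 and 11.7 CPM compared with 2.51, 0.601 and 1.85 CPM (2.78). Col8a2, a collagen of Descemet's membrane, was at 633, 1341 and 1026 CPM in the eye cups. Basement membrane genes were higher in eye cup in 13 of 17 (median −2.52), with Agrn and Npnt alike and Lama1 at 0.93. Matrix turnover genes were higher in eye cup in 12 of 20, among them Timp3, an inhibitor deposited in Bruch's membrane (572, 1037 and 486 CPM compared with 76.1, 63.5 and 62.6 CPM), while Mmp9 (38.96, 32.1 and 41.8 CPM compared with 11.3, 0.801 and 3.70 CPM), Mmp17 and Mmp24 were higher in retina. Htra1, a secreted serine protease, was alike (−0.03). Of 10 cartilage genes, 5 were higher in eye cup and Ucma was higher in retina (adjusted p = 0.0753 without mouse 3), and Col2a1, which vitreous and ocular tissues also express, was neither called nor alike (46.8, 44.3 and 50.02 CPM compared with 30.8, 28.7 and 139 CPM), with the eye cup below the retina in mice 1 and 2 and above it in mouse 3.

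Vessel genes were on the eye cup side with exceptions at the VEGF receptors. Of 18 endothelial genes, 16 were higher in eye cup (median −2.98). Plvap, the diaphragm protein of fenestrated vessels such as the choriocapillaris, differed most, at 389, 610.4 and 265 CPM compared with 5.43, 6.48 and 4.32 CPM (−6.22). Cldn5, a junction protein of barrier vessels, was also higher in eye cup (−2.43), at 100.5, 124 and 99.2 CPM compared with 27.1, 14.7 and 19.6 CPM. Kdr, VEGF receptor 2, was higher in retina (212, 170.5 and 228 CPM compared with 93.6, 107 and 63.1 CPM, 1.23), which fell to 0.92 without mouse 3, and Flt1, VEGF receptor 1, was alike (0.20). Of 15 VEGF and angiopoietin genes, 11 were higher in eye cup. Vegfa was at 172, 197 and 176 CPM in the eye cups and 81.8, 83.1 and 80.8 CPM in the retinas (−1.14, and −0.85 with total library size), and Serpinf1, an inhibitor of vessel growth secreted by the RPE, at 143, 167 and 154 CPM and 5.82, 4.00 and 5.22 CPM (−4.95). Mural cell genes were higher in eye cup in 9 of 12 (median −3.01), and the pericyte genes Rgs5 (−0.93) and Abcc9 (−0.77) did not pass. In TGF-beta and BMP signalling, 15 of 25 genes were higher in eye cup (median −2.77) and 3 in retina. Bmp4 was at 207, 315 and 306 CPM in the eye cups and 2.19 to 3.29 CPM in the retinas (−6.75), whereas Bmp5 was at 2.06, 2.53 and 1.75 CPM in the retinas and undetected in the eye cups, at least 10.5-fold higher in retina.

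Barrier and transport genes of epithelia were mostly on the same side. Of 13 tight junction genes, 11 were higher in eye cup (median −3.91), among them Cldn19, the claudin of the RPE (16.1, 18.6 and 47.6 CPM compared with 3.46, 1.86 and 3.00 CPM), and the scaffold protein Tjp1 was alike. The subunits of the sodium-potassium ATPase went in different directions. Among the beta subunits, Atp1b1 was alike (0.42), Atp1b2 was higher in retina (1.13, adjusted p = 0.053 without mouse 3) and Atp1b3 higher in eye cup (−2.01). Over the 12 genes tested, 3 were higher in retina and 7 in eye cup.

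Immune genes were mostly higher in eye cup. Of 15 microglia and macrophage genes, 12 were higher in eye cup (median −2.86), but the microglial receptors Cx3cr1 (−0.54) and P2ry12 (0.09, alike) were not. Antigen presentation genes were higher in 13 of 15 (median −3.09). Cd74, the chaperone of MHC class II, was at 52.9, 123 and 75.4 CPM compared with 0.482, 0.810 and 0.941 CPM (−6.76), and B2m, the light chain of MHC class I, at 320.3, 497 and 470.5 CPM compared with 22.7, 17.4 and 21.4 CPM (−4.37). Complement genes were higher in 16 of 19 (median −3.01, or −2.70 with undetected genes at their bound), and in 11 without mouse 3. Serping1, an inhibitor of the classical pathway, was at 84.8, 162 and 141 CPM compared with 10.3, 9.15 and 8.34 CPM (−3.75). C3 was low in both tissues, at 4.70, 17.3 and 16.7 CPM in the eye cups and 2.24 to 3.11 CPM in the retinas, and its call (−2.11) was lost without mouse 3 (−1.78, adjusted p = 0.0976). Lymphocyte, mast cell and neutrophil genes passed in 8 of 14, all undetected in the retinas, but summed to only 12.5, 19.97 and 13.3 CPM in the eye cups. Among 23 lysosome and phagocytosis genes, 16 were higher in eye cup, including Mertk, the receptor with which the RPE takes up outer segments (52.0, 61.3 and 47.3 CPM compared with 10.6, 9.30 and 9.46 CPM), and Npc1, a cholesterol transporter, was higher in retina (1.26).

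Among the lists, the largest differences belonged to the surface epithelium. All 13 of its genes were higher in eye cup with a median of −12.05. Krt5, a basal keratin, was at 4568, 5799 and 4940.1 CPM in the eye cups and had at most 0.0953 CPM in a retina, at least 35675-fold higher in eye cup. Krt4, a keratin of conjunctiva, was at least 11975-fold higher, and Krt12, the keratin specific to cornea, was at 143, 334 and 879 CPM compared with 0.0876, 0.0953 and 0.171 CPM (−11.75). The 15 leading eye cup genes with at least 50 CPM were all undetected in the retinas, and included Krt5, Krt4, Adh7, Krt13, Krt17, Alox12e, Cstdc5, Krt6b, Krt14, Psca, Pdzk1ip1, Rbp2, Cldn4 and Mab21l4. Of these, Krt5, Krt4, Krt13 and Krt14 are in the surface epithelium list, and most of those named are known from stratified or mucosal epithelium. None is in the RPE, melanin, endothelial or fibroblast lists, but these are short and cannot show which cells a gene came from.

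Muscle and nerve were present as well. Skeletal muscle genes were higher in eye cup in 16 of 17 (median −6.90 with undetected genes at their bound), with the muscle actin Acta1 at 204, 357 and 158 CPM compared with 3.11, 1.67 and 1.88 CPM. Of 13 myelin genes, 11 were higher in eye cup, including Mobp, a protein of central myelin (16.1, 462 and 9.16 CPM). Mobp stood far higher in mouse 2, and Mbp, at 103, 2163 and 104 CPM compared with 31.1 to 37.7 CPM, did not pass (−2.83 ± 1.00, adjusted p = 0.0535). Astrocyte genes were higher in eye cup in 6 of 10, red cell genes in 6 of 7 and ciliary body and iris genes in 7 of 11, where Mab21l1 and Opcml were higher in retina. Lens genes passed in 10 of 20, but in only 2 did the tissues not overlap, and the count depended on the fit, with 3 passing without the mouse block, 3 in the fit of all 24 libraries, 5 without mouse 1 and 14 without mouse 3. Cryaa, a lens crystallin, was at 289, 52.2 and 95.8 CPM in the retinas and 1608, 285 and 76.3 CPM in the eye cups, and did not pass (−1.60, adjusted p = 0.0667), whereas Cryab, which many tissues express, was higher in each eye cup (−3.24).

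The deposited annotation assigns 1235 of the genes tested to a transcription factor family. Of these, 308 (24.9%, compared with 17.3% of all genes) were higher in retina, 262 (21.2%, compared with 23.5%) higher in eye cup and 305 (24.7%, compared with 19.9%) alike. Some are included by this annotation alone, such as Tulp1, which is also in the photoreceptor cilium list. By retinal level, the leading ones were the photoreceptor genes Nrl, Tulp1, Crx, Zfp385a, Esrrb and Nr2e3, followed by others such as Mef2d, Neurod1 and Aff4. Nrl, which sets rod identity, was at 2169.7, 2100.2 and 2078 CPM compared with 940.2, 109.6 and 422 CPM (2.56), and Crx at 1072, 985 and 1121 CPM compared with 369, 35.1 and 157 CPM (3.03). Without mouse 3, the adjusted p-values were 0.0526 for Crx, 0.0674 for Nrl, 0.0658 for Tulp1, 0.0532 for Esrrb and Neurod1 and 0.0858 for Zfp385a, so these calls were lost. In the eye cup the leading genes so annotated were Tsc22d1, Dbp, Myrf, Elf3, Id3, Glmp, Mbd3, Nfix, Sox10 and Mxd4. Myrf, a membrane-bound factor of RPE and myelinating glia, was at 332, 499 and 441 CPM compared with 4.82, 4.43 and 1.67 CPM (−6.94). With total library size, Tsc22d1 and Nfix were at −0.99 and −0.87 and no longer passed. In a list of 32 factors known from eye development, 10 were higher in retina, 14 higher in eye cup and 3 alike. Mitf, the pigment cell factor, was at 49.4, 57.4 and 46.2 CPM in the eye cups and 6.65, 6.39 and 6.85 CPM in the retinas (−2.94), and Foxc1, a factor of the periocular mesenchyme, was also higher there (−5.62). The 3 alike were Pax6, Six3 and Rax, the last at 99.4, 101 and 98.8 CPM compared with 89.7, 74.5 and 132 CPM.

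Glucose and lactate genes differed by isoform. Of 27 genes, 10 were higher in retina and 8 higher in eye cup, and 3 were alike. Among the glucose transporters, Slc2a1 was at 1141, 1487 and 1582 CPM in the eye cups and 281, 259 and 300.1 CPM in the retinas (−2.31), and the neuronal Slc2a3 at 24.1, 4.94 and 12.5 CPM and 127, 105 and 123 CPM (3.33). Hk2, the hexokinase of photoreceptors, was at 509, 407 and 382 CPM in the retinas and 198, 33.7 and 56.3 CPM in the eye cups (2.58). Enolase divided into the neuronal Eno2, higher in retina (2.81), the muscle form Eno3, higher in eye cup (−2.92), and Eno1 (0.64), which did not pass. Lactate dehydrogenase divided too. Ldha, the subunit that favours lactate production, was at 1173, 1158 and 1268 CPM in the retinas and 665, 420.5 and 543 CPM in the eye cups (1.17, adjusted p = 0.00309, edgeR), and Ldhb at 183, 191 and 190.4 CPM and 427, 512 and 668 CPM (−1.49). The lactate transporters Slc16a8 and Slc16a1 and their partner Bsg were higher in eye cup by 8.06, 1.14 and 2.21 on the log2 scale. For Slc16a1 the difference was −0.84 with total library size and −0.96 without mouse 2.

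Many genes were shared. In total, 4372 genes (19.9% of those tested, and 31.9% of the 13706 with at least 1 CPM in both tissues) were alike. The 10 most abundant were Glul, Aldoa, Eef2, Ckb, Ubb, Atp5b, Aplp2, Dkk3, Eif4g2 and Hsp90ab1. Glul is glutamine synthetase, Aplp2 is a membrane protein and Dkk3 is secreted, while the others serve energy metabolism, translation and protein handling. Aldoa was at 2394, 2392 and 2464 CPM in the retinas and 2559.8, 2396 and 3119 CPM in the eye cups (−0.15). With the limit set at 0.5 in place of 1 on the log2 scale, 839 genes were alike, which is bounded by the width of the intervals from 3 mice.

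Core machinery was partly shared. Of 22 proteasome genes, 14 were alike and 4 higher in eye cup (median −0.47). None of those 4 passed with total library size. Of 22 RNA polymerase and splicing genes, 14 were alike and 4 higher in eye cup (median −0.13, which turned to 0.17 with total library size). Over all genes tested, 23.5% were higher in eye cup and 19.9% were alike, or 31.9% of those with at least 1 CPM in both tissues. The splicing factors Prpf3 (0.01) and Prpf31 (−0.05), loss of which is known from retinitis pigmentosa, were level between the tissues. Ribosomal protein genes were not. Of 30, 27 were higher in eye cup with a median of −1.77, and their sum was 5632, 5549 and 5561 CPM in the retinas and 15168, 17564 and 17176 CPM in the eye cups. Transcripts of the mitochondrial genome were also higher in eye cup, in 11 of 13 genes, with sums of 17279.7, 18782 and 18987 CPM and 116305, 75751 and 90061 CPM. The nuclear genes of the respiratory chain differed less (12 of 26 higher in eye cup, 11 alike, median −0.83), and the largest differences among them were in the muscle isoforms Cox8b, Cox6a2 and Cox7a1. mt-Co1 was at 5957, 6549 and 6592 CPM compared with 39017, 24546 and 27416 CPM (−2.22, adjusted p = 0.0648 without mouse 3).

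Among 21 genes in common use as references, 4 were alike, 8 were higher in eye cup and 2 higher in retina (compared with 19.9%, 23.5% and 17.3% of all genes). Ywhaz was the most even at 458, 423 and 459 CPM compared with 468, 388 and 491 CPM (0.00, 95% interval −0.37 to 0.37), while Actb was at 442, 397 and 479 CPM compared with 2051, 2190.0 and 2402 CPM (−2.33) and Rplp0 at −2.21. Of 17 clock genes, 7 were alike, 6 were higher in retina and 3 in eye cup (compared with 19.9%, 17.3% and 23.5% of all genes). Nr1d1 (234, 225 and 240.1 CPM compared with 178, 195 and 273 CPM) and Per1 (0.23) were alike, whereas Arntl, which encodes BMAL1, was at 78.6, 68.2 and 77.7 CPM compared with 26.2, 4.01 and 13.1 CPM (2.68), the order among eye cups seen for neuronal genes. Of 16 immediate early genes, 2 were higher in retina and 6 in eye cup (compared with 17.3% and 23.5% of all genes), among them Junb (−2.52), and Egr1 was not called (0.02).

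The same comparison was run in the other mice. In wildtype mice with dox, 4.16% of genes tested were higher in retina and 17.7% in eye cup, compared with 13.5% and 19% in untreated PRDM13-OE mice and 11.4% and 19.1% in PRDM13-OE mice with dox. Of the 3805 retina calls in untreated wildtype mice, 807 (21.2%), 2710 (71.2%) and 2337 (61.4%) were called in the same direction in these groups, and of the 5155 eye cup calls, 3555 (69.0%), 3881 (75.3%) and 3897 (75.6%). None was called in the opposite direction, and 616 retina calls and 2821 eye cup calls were made in all 4 groups. The groups shared no libraries. Rod transcripts in the eye cups, at a scaling common to the 24 libraries, were at 32277, 4455 and 16019.9 CPM in untreated wildtype mice, 60543, 47053 and 33799 CPM in wildtype mice with dox, 17651, 29433 and 9449.9 CPM in untreated PRDM13-OE mice and 16872, 7509.6 and 47028 CPM in PRDM13-OE mice with dox. The wildtype eye cups with dox, where the fewest retina calls were made, were thus all above the highest untreated wildtype eye cup. Their RPE genes were at 16390.3, 18556 and 33528 CPM, compared with 46223, 57088 and 68419 CPM in the untreated ones. Surface epithelium ran from 1651 to 50331 CPM among the 12 eye cups.

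**Figure D5:**
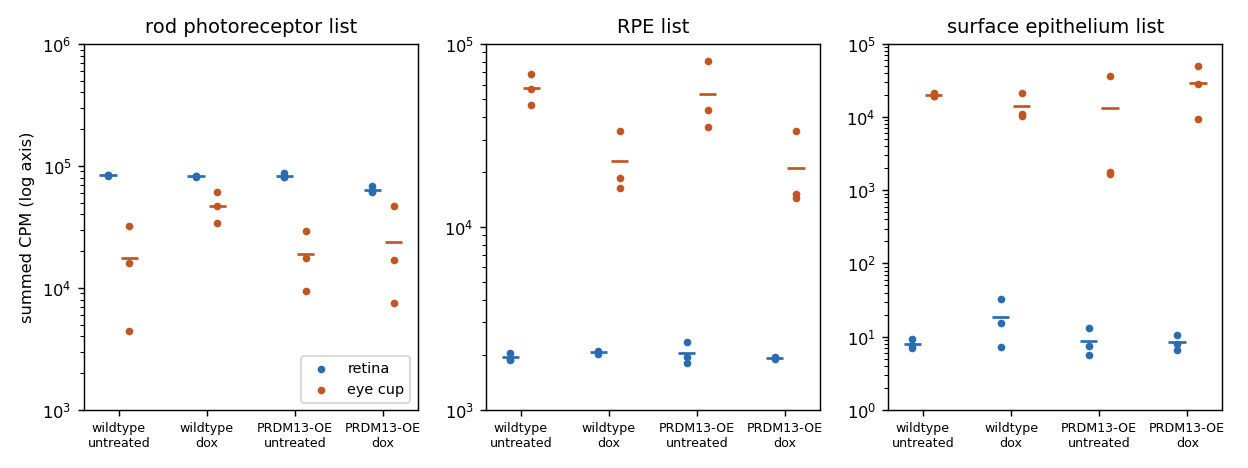
Summed CPM on a log axis (vertical) of the rod, RPE and surface epithelium lists in the retinas and eye cups of the 4 groups (horizontal), with 1 point per mouse and a bar at the mean of 3. The eye cups of wildtype mice with dox have 33799 to 60543 CPM of rod genes, above the 4455 to 32277 CPM of the untreated wildtype mice.

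The tissue difference itself was then compared between groups in fits of 12 libraries. Against wildtype mice with dox, 298 of 23814 genes (1.25%) had a higher and 83 (0.349%) a lower retina to eye cup difference in untreated wildtype mice, with adjusted p-values of at least 0.0485 (edgeR), and 6287 had an unadjusted p under 0.05. This count rested on single mice: none passed without untreated wildtype mouse 3 or without dox mouse 1 or 2, and 2023 and 430 passed without untreated wildtype mouse 1. Kcna1, a neuronal potassium channel, was at a mean of 21.96 and 23.8 CPM in the retinas of untreated and dox wildtype mice and 1.02 and 11.0 CPM in their eye cups. Bmp4 was at 276 and 87.6 CPM in these eye cups. Against untreated PRDM13-OE mice, 0% of 23912 genes passed in either direction, with 351 at an unadjusted p under 0.05 and none by DESeq2 without the mouse block (691 at an unadjusted p under 0.05).

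In 22 called genes the ratio of retina to eye cup did not have the same sign in all 3 mice. In 3 of them it turned direction, and in the others both tissues of at least 1 mouse were at 0. Besides Xist and Uty, the 22 included genes found in the eye cup of mouse 2 and hardly elsewhere, such as Klk6, a protease of oligodendrocytes (0.466, 24.3 and 0 CPM), Fa2h, which makes myelin lipids (2.56, 16.9 and 0.0975 CPM), and Olig2, an oligodendrocyte factor (0.792, 5.01 and 0 CPM). Sprr2a3 and Cnfn, genes of cornified epithelium, were found mainly in the eye cup of mouse 1, at 13.0 and 8.38 CPM, and the lung surfactant protein gene Sftpd in that of mouse 2 (4.34 CPM). These calls were lost in at least 1 setting: Klk6, Olig2, Sprr2a3 and Cnfn in DESeq2 with the mouse block (adjusted p = 0.181, 0.153, 0.67 and 0.424), Klk6, Fa2h and Olig2 without mouse 2 (adjusted p = 0.172, 0.155 and 0.1002), and Klk6, Sprr2a3 and Sftpd without the block (adjusted p = 0.0558, 0.074 and 0.0674).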

How the data were processed

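Polyadenylated RNA of flash-frozen retinas and eye cups was sequenced on an Illumina platform. The authors deposited raw read counts per gene and FPKM (fragments scaled by gene length and sequencing depth), and the submitters' processing notes name CASAVA, HISAT2 and GRCm39. The counting tool, annotation release and strand setting are not given in the sources used here. Of 779 list members, 192 have exons that overlap another protein-coding gene (27 on the same strand), and their counts are uncertain where reads were shared. Deposited columns that hold the authors' own comparisons between groups (fold changes and p-values) were not used.

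Samples were grouped by their labels. Counts were tested in edgeR 4.0.16 (R 4.3.3) by the quasi-likelihood test, with TMM factors, the mouse as a block, genes with at least 10 counts over the 6 libraries and Benjamini-Hochberg adjustment over all genes tested. A call needed both a log2 fold change (retina minus eye cup) beyond 1 and an adjusted p below 0.05. Values are CPM after TMM scaling. Genes were alike where the 95% interval lay within 1 log2 unit of 0 and both means were at least 1 CPM. A gene was undetected in a tissue where none of its libraries held over 3 counts, and folds against them are lower bounds set at 3 counts in each library. The floors cover counting error only. Both tissues come from the same mice per the labels, which pairs them. Deviations from the tissue means correlated at 0.027, 0.059 and 0.043 within a mouse and from −0.049 to 0.011 between mice. The 3 pairs allow no exact p below 0.25 for a single value, so p-values come from the fit across genes and measure the spread among these 3 mice.

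Named genes were members of 49 lists and those that go against their list, the largest differences above 50 CPM without overlap (15 in each direction), the most abundant genes by FPKM (10 per tissue), called transcription factors and alike genes by level, the largest differences between groups, and called genes whose ratio does not keep its sign in all mice. Gene lists and members were chosen with earlier results of these data known. A few others (the sequences shown, Timp3, Cldn19, Kcnj13 and the uneven genes in the closing section) were chosen after their values were seen. Some genes that this rule names are not reported here. Alternatives used DESeq2 1.42.0, other scalings and filters, and each mouse left out. The fits were tested on simulated data. Python 3.11.15 with pandas 2.3.3 and matplotlib 3.10.9 read sequences and drew figures.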

Additional observations from a re-analysis of the deposited data

Results flagged for a closer look

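The difference between retina and eye cup was itself different between untreated wildtype mice and wildtype mice with dox in 298 genes with a higher and 83 genes with a lower value in untreated mice, by the interaction term of the edgeR fit. The 10 largest higher ones, as differences of log2 fold changes, were Trpc5 (6.97), Bmp5 (5.28), Kcna3 (5.05), A930031H19Rik (4.55), Zfp804b (4.36), Pcdha12 (3.79), Cntnap5b (3.69), Cyp4x1 (3.56), Cdh12 (3.56) and Kcna1 (3.39), with adjusted p-values of 0.0485 or 0.0496. Several of these, such as Trpc5, Kcna3, Kcna1, Cdh12 and Cntnap5b, are known from neurons. Their mean retina levels were close in both groups, and their eye cup levels were low in untreated mice and higher with dox. In Cdh12 the retina means were 9.08 and 10.4 CPM and the eye cup means 0.280 and 3.84 CPM, and in 5 of the 10, Trpc5, Bmp5, Kcna3, A930031H19Rik and Cntnap5b, the untreated eye cups held at most 3 counts per library, so their sizes depend on the prior count and are no bounds. The rod list was also higher in the eye cups with dox (33799 to 60543 CPM compared with 4455 to 32277 CPM), and its part in these differences was not tested.

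The 10 largest lower ones were Igf2bp1 (−3.05), Trabd2b (−2.91), Gstm2 (−2.82), Podn (−2.77), Slc6a13 (−2.63), Bmp4 (−2.31), Gimap6 (−2.14), Olfml1 (−2.07), Clec14a (−2.06) and Ctla2a (−2.06), with the same adjusted p-values. Clec14a and Gimap6 are known from endothelial and immune cells and Slc6a13, a GABA and taurine transporter, from epithelia. Slc6a13 had eye cup means of 496 and 213 CPM and retina means of 7.18 and 18.3 CPM in untreated and dox mice. In each of these 10 genes the untreated mice had the higher eye cup mean and the lower retina mean. Groups of 3 mice were too small for a test of single outlying samples.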

How the results depend on the processing

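Of the called named genes, Xist alone changed direction in a setting tried, and turned from 1.66 to −0.24 in DESeq2 with the mouse block. Counts of genes higher in retina and in eye cup were 4238 and 5687 with no replicate block, where 3723 and 5131 of the paired calls were shared, so the block changed neither count by over 1.5 times, though 3 lens genes passed without it in place of 10. Without 1 mouse they ranged from 2842 to 4009 and from 4258 to 4799, and 1913 were higher in retina past a log2 fold change of 2. Alike genes numbered 2901 to 4161 without 1 mouse and 839 with the interval within 0.5. Of 622 called named genes, 112 lost the call in at least 1 setting, 68 of them without mouse 3 and 35 with total library size. The difference from wildtype mice with dox depended most on the setting: 785 higher and 287 lower genes with no replicate block, 1239 and 870 by DESeq2 without the block, 1350 and 221 with total library size, 0 and 0 with filterByExpr (6080 at an unadjusted p under 0.05), 147 lower with robust fitting, and 0 to 2023 higher and 0 to 708 lower without 1 mouse. It was 0 and 0 without untreated mouse 3 (4676 at an unadjusted p under 0.05) or dox mouse 1 (3817) or 2 (3992), 457 and 77 without untreated mouse 2, and 745 and 708 without dox mouse 3. Against untreated PRDM13-OE mice, lower genes numbered 0 to 49 without 1 mouse, the 49 without PRDM13-OE mouse 1. The first principal component held 78.9% with log2(FPKM + 0.1), 85.3% with log2 CPM and 97.5% when only the most variable genes were used. Taken of summed FPKM in place of counts, the share moved from 8.80% to 7.97% for rod genes in retina (9.00% without mitochondrial counts) and from 1.55% to 0.941% in eye cup, from 0.204% to 0.381% in retina and 5.15% to 7.69% in eye cup for RPE genes, from 0.000843% to 0.00160% and 1.79% to 2.26% for surface epithelium, from 0.619% to 1.40% and 1.4997% to 2.32% for ribosomal protein genes (1.64% in eye cup without mitochondrial counts), and from 2.04% to 6.42% and 8.48% to 17.5% for mitochondrial genes. Beyond these shares and counts, causes were not tested. With 3 mice, differences under about the width of the intervals could not be shown.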

Other observations

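Gapdh, a glycolytic enzyme in common use as a reference, was uneven among libraries of the same tissue. It was at 242, 125 and 7.75 CPM in the retinas of mice 1, 2 and 3 and at 173, 5.94 and 469 CPM in their eye cups. Its log2 difference was 0.21 ± 2.19 (adjusted p = 0.941, edgeR), a sign opposite to that of the means (125 CPM in retina and 216 CPM in eye cup). Neither tissue nor mouse ordered these values, and the other glycolytic genes listed varied far less among the retinas (Pkm was at 3240.4, 3318 and 3431 CPM). Sumo2, a ubiquitin-like modifier, was at 9.72, 70.9 and 13.2 CPM in the retinas and 12.6, 8.88 and 10.4 CPM in the eye cups, with the retina of mouse 2 alone above the rest. Both genes are known to have processed pseudogenes that resemble them, so their counts are uncertain where reads were shared with these copies. The cause of the unevenness was not tested.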
